A study of Mus musculus with 2 samples.

Results

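The mouse genome carries a large family of cytochrome P450 genes, and 88 of them that encode no enzyme of steroid hormone synthesis were followed here in the newborn adrenal gland. They were chosen by name: protein-coding genes whose symbol is Cyp, a family number, a subfamily letter and a gene number, which gave 94 genes, less the 6 steroidogenic ones (Cyp11a1, Cyp11b1, Cyp11b2, Cyp17a1, Cyp19a1 and Cyp21a1). The 88 genes fall in 12 families and 34 subfamilies, lie on 15 chromosomes, and stand among 22028 protein-coding and 55536 annotated genes. The naming rule used no measured value, although it was chosen with earlier results of these data known.

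Total RNA was sequenced from 2 adrenal glands of male B6CASTF1/J mice aged 4 days, an F1 hybrid of C57BL/6J with CAST/EiJ, a wild-derived strain. Both libraries were made from 300 ng of RNA depleted of ribosomal RNA, by a strand-preserving kit, with ERCC spike-ins added, and neither animal was treated. The labels give the replicates as male 04 (replicate 2) and male 03 (replicate 1), although a description repeated on both samples names male 03 and both carry 1 donor label. The series holds no second condition, so the members could be described by level and by how far the 2 libraries differed. With 1 library per animal no spread between animals can be had for a difference, and the tests below compare these libraries and not conditions. The gene tables held 30292851 estimated counts in replicate 2 and 32231301 in replicate 1, and a gene at 0 counts could still have stood at up to 0.099 CPM in replicate 2 and 0.0931 CPM in replicate 1, the share of all gene counts that 3 counts give. Intervals below are 95% intervals, and they and these limits cover counting error only. Levels are in TPM, a length-scaled share of the library's transcripts.

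P450 enzymes hold a heme group in a loop around a cysteine, bind oxygen there, and insert an oxygen atom into a substrate with electrons handed on by a reductase. Members of families 1 to 4 oxidise drugs, pollutants, fatty acids and eicosanoids, and are best known from liver, kidney, lung and gut. Other families act on bile acids and oxysterols, on vitamin D, or on retinoic acid, the signal that CYP26 enzymes remove. In the mouse adrenal, Cyp2f2 is known from the X-zone, the innermost cortex that is lost later in life, and Cyp1b1 from the cortex.

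The heme loop shows what the members share. The bases that encode it were found by its pattern of conserved residues in the coding sequence of 80 of the 88 members; in the other 8 (Cyp20a1, Cyp2b10, Cyp2s1, Cyp39a1, Cyp3a59, Cyp7a1, Cyp7b1 and Cyp8b1) this strict pattern was not matched in the coding sequence used. The 30 bases are given below for Cyp2f2, the highest member in both libraries, and for Cyp2e1 and Cyp3a11, which were much higher in replicate 2. They are also given for 3 members of other families that differed by under 2-fold between the libraries. Capitals mark the codon of the cysteine that holds the heme iron. Sequences are those of GENCODE M21 transcripts, 5′ to 3′, and the codon lies in GRCm38 at chr7:27133227-27133229 (+ strand) for Cyp2f2, chr7:140774569-140774571 (+) for Cyp2e1, chr5:145858811-145858813 (-) for Cyp3a11, chr17:32924948-32924950 (-) for Cyp4f13, chr17:79710315-79710317 (-) for Cyp1b1 and chr6:84574483-84574485 (-) for Cyp26b1.
Cyp2f2: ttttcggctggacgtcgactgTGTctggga
Cyp2e1: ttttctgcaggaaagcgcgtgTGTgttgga
Cyp3a11: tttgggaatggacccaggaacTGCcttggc
Cyp4f13: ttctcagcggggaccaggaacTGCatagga
Cyp1b1: ttctcagtgggcaaacggaggTGCatcggt
Cyp26b1: tttggcggtggcgtgcggaccTGCctgggc

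Sequences also bear on how far the close copies can be told apart. Cyp2c67, Cyp2c68 and Cyp2c69, close copies in the Cyp2c cluster on chromosome 19, each have 1473 coding bases. Cyp2c67 is 97.7% identical to Cyp2c69 and 97.1% to Cyp2c68. The stretch of 60 coding bases below, from coding base 211 onward, has 6 positions that differ among the 3 genes, in capitals. It lies on the - strand of GRCm38 at chr19:39643653-39643712 in Cyp2c67, chr19:39739437-39739496 in Cyp2c68 and chr19:39881507-39881566 in Cyp2c69.
Cyp2c67: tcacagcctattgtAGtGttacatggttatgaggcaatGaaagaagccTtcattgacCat
Cyp2c68: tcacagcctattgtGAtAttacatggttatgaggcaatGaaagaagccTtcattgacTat
Cyp2c69: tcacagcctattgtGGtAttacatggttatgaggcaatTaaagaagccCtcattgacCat
The deposited tables give an SD for how shared reads are split between copies. For Cyp2c67 it was 10.5% of the count in replicate 2, the largest among the members called higher in replicate 2 below. It was above 5% for 3 of these (Cyp2c67, Cyp2c40 and Cyp2c50) and 0 for 8 of them, so among called members in replicate 2 the split was least certain within Cyp2c. Members with few counts reached more elsewhere, such as 30.7% for Cyp2d11 in replicate 2. In replicate 1 it was 36.1% for Cyp2c67 and 20.3% for Cyp4a32. Reads shared among members of a subfamily leave its sum the same. Reads shared with copies outside the naming rule, such as Cyp3a41a, would not.

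The promoters of a few members are shown because promoter letters differed between members that differed between the libraries and those that did not. The windows run from 250 bases before to 50 bases after the RefSeq start on GRCm38.p6: chr7:140763569-140763868 (+) for Cyp2e1, chr15:82794196-82794495 (-) for Cyp2d26, chr5:145879805-145880104 (-) for Cyp3a11 and chr7:27119705-27120004 (+) for Cyp2f2. Capitals mark matches, on either strand, to TATAAA (the TATA box, which positions the start of transcription) or CAAAGTCCA (a site of the nuclear receptor HNF4).
Cyp2e1: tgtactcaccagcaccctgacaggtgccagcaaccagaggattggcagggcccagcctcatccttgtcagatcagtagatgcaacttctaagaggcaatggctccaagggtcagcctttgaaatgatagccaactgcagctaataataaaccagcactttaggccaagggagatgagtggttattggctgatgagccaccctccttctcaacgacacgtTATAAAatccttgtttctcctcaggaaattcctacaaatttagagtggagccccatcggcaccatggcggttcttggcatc
Cyp2d26: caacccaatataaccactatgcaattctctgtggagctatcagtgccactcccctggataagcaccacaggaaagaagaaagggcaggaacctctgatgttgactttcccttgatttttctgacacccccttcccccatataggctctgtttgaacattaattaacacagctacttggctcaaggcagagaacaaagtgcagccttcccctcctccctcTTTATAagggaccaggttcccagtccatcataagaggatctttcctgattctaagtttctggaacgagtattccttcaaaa
Cyp3a11: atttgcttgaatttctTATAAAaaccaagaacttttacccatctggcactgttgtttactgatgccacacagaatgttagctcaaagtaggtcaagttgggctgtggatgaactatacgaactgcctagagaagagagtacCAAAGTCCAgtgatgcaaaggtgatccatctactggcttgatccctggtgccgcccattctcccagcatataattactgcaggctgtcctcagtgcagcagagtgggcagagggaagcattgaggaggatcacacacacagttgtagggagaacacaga
Cyp2f2: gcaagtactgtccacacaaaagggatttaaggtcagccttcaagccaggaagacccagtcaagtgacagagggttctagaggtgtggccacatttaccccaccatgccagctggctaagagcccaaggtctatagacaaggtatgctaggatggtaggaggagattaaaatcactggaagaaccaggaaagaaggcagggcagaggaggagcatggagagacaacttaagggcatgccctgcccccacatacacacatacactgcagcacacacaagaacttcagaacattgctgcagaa
The TATAAA match began at position -31 relative to the start in Cyp2e1 and, read on the other strand, at -31 in Cyp2d26, but at -234 in Cyp3a11. The Cyp2f2 window held neither motif.

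Most members were low in this gland, and their levels fell into 2 kinds, similar in both libraries or far apart. At a mean of 1 TPM or more, 39 of 88 members were detected (44.3%), against 60.4% of all protein-coding genes. The count depended on the library: 46 members (52.3%) reached 1 TPM in replicate 2 and 21 (23.9%) in replicate 1, while the background was nearly level, at 61.1% in replicate 2 and 58.9% in replicate 1. All 21 of the members at 1 TPM in replicate 1 also reached it in replicate 2, and 25 more did so in replicate 2 alone. Of the 39, 18 passed only through replicate 2, so no count or median over the 39 is used as evidence of a difference. At the other end, 12 members had 0 counts in both libraries: Cyp2b19, Cyp2b23, Cyp2c38, Cyp2c39, Cyp2c65, Cyp2c66, Cyp2j7, Cyp2t4, Cyp2w1, Cyp4a29, Cyp4f37 and the retinoic acid hydroxylase gene Cyp26c1. Another 22 had counts but fewer than 20 over both libraries, the highest of them Cyp2g1 at a mean of 0.335 TPM.

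**Figure D1:**
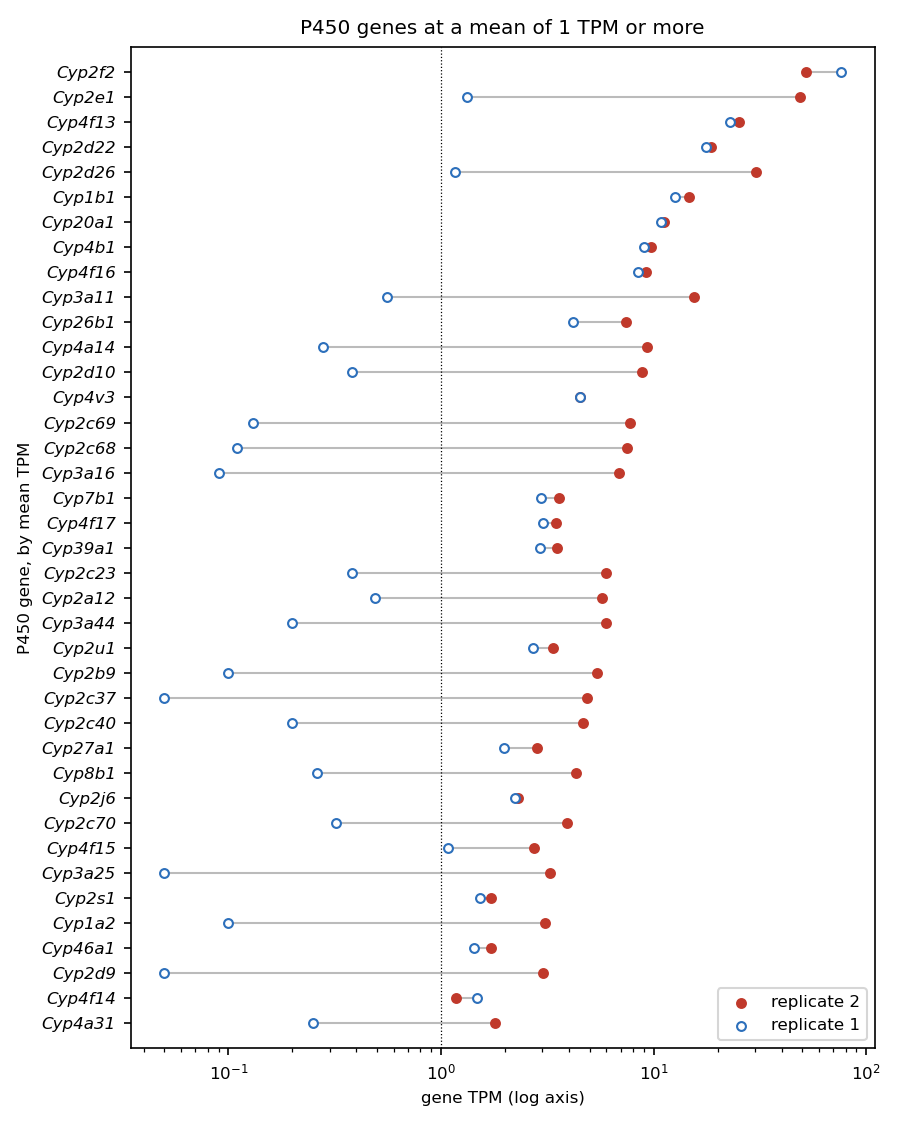
Gene TPM (log axis) of the 39 P450 genes at a mean of 1 TPM or more, in replicate 2 (filled red) and replicate 1 (open blue), ordered by mean, with the dotted line at 1 TPM. Cyp2f2 stands at the top at 52.32 TPM in replicate 2 against 76.2 TPM in replicate 1, and 18 genes lie left of the line in replicate 1.

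For each gene, the counts of both libraries were set against each other by an exact two-sided binomial test against TMM library sizes, with Benjamini-Hochberg adjustment over all genes tested, and a gene was called at an adjusted p under 0.05 and over 2-fold. Among genes kept by edgeR's filterByExpr, 37 members were tested and 14 were called higher in replicate 2 (37.8%), against 3.39% of all 18160 genes. No member was called higher in replicate 1, against 0.606% of all genes; at an unadjusted p under 0.05, 3 members were lower in replicate 2 (Cyp20a1, Cyp2f2 and Cyp4f14), each by under 2-fold. That filter asks for counts in both libraries and so drops genes that are low in 1 of them. With a minimum of 20 counts summed over the libraries instead, a rule chosen after the values were seen, 54 members were tested and 31 were called higher in replicate 2 (57.4%), against 4.61% of 19105 genes. Again no member was called higher in replicate 1 (background 0.979%); at an unadjusted p under 0.05 the same 3 members and Cyp2d22 (p = 0.0404, exact binomial test) were lower in replicate 2. The 17 members added by this rule were all called, which follows in part from the rule, since a gene with 20 counts that the filter drops is low in 1 library.

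The split between called and other members was wide. The 31 called members had log2 ratios (replicate 2 over replicate 1, TMM-scaled counts) of 2.11 to 6.65, with a median of 4.51, or 22.8-fold. The 23 others had log2 ratios of -0.63 to 0.99, with a median of 0.01, the same as the median of 0.01 over all genes tested, and no tested member lay between 0.99 and 2.11. Of the called members 27 passed 8-fold, which 1.67% of all genes did. The summed TPM of the called members was 198.6 in replicate 2 and 7.55 in replicate 1, whereas that of the members tested but not called was 182 in replicate 2 and 189.8 in replicate 1. Called members thus made up 51.8% of all members' TPM in replicate 2 and 3.81% in replicate 1. Calls were made on this same ratio, and 17 of the 31 could be tested only with the minimum chosen afterwards. The sums, medians and shares of the called members therefore describe that choice and are no further evidence of a difference. In a bulk sample, fewer cells of a type and less RNA per cell cannot be told apart, so these ratios do not say in which cells the RNA lay.

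**Figure D2:**
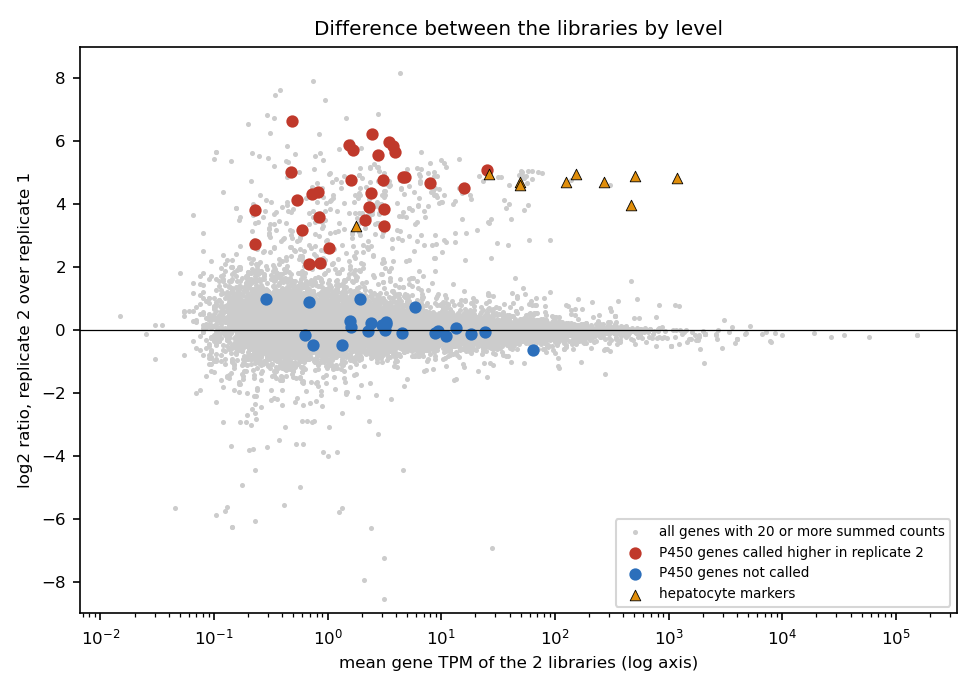
Log2 ratio of replicate 2 over replicate 1 against mean TPM (log axis) for the 19105 genes with at least 20 summed counts (grey), the 31 P450 genes called higher in replicate 2 (red), the 23 P450 genes tested but not called (blue) and the 10 hepatocyte markers (orange triangles). The red points lie at log2 ratios of 2.11 to 6.65 and the blue ones at -0.63 to 0.99.

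Markers of liver cells moved with the called members. All 10 hepatocyte markers were called higher in replicate 2, against 4.61% of all genes tested. Their summed level was 5481.63 TPM in replicate 2 against 209.44 TPM in replicate 1, with log2 ratios of 3.32 to 4.97 and a median of 4.71. The albumin gene Alb, the most abundant of them, had 2319.08 TPM in replicate 2 against 76.26 TPM in replicate 1, and the tyrosine aminotransferase gene Tat, the lowest, 3.13 TPM in replicate 2 against 0.41 TPM in replicate 1. None of the 10 was at 0 in either library. Of the 31 called P450 genes 15 lay within the range of log2 ratios of these markers, 10 above it and 6 below it (Cyp2a12, Cyp3a13, Cyp2b10, Cyp4a31, Cyp2j5 and Cyp4a10). The called genes were chosen by this ratio, so these counts are description only. The TPM of Cyp2e1 was 2.1% of that of Alb in replicate 2 and 1.74% in replicate 1. The part of liver RNA in the P450 results was not tested.

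Other marker lists moved less or the other way. Of the 10 kidney tubule markers 9 could be tested and 6 were called higher in replicate 1, against 0.979% of all genes tested. The 10 summed to 6.45 TPM in replicate 2 against 10.21 TPM in replicate 1. Of 3 X-zone markers Akr1c18 was called higher in replicate 1 (background 0.979%), at 158.07 TPM in replicate 2 against 392.71 TPM in replicate 1. Thrb (15.26 TPM in replicate 2 against 16.8 TPM in replicate 1) and Pik3c2g (0.89 TPM in replicate 2 against 0.67 TPM in replicate 1) were not called, and the 3 summed to 174.22 TPM in replicate 2 against 410.18 TPM in replicate 1. Chromaffin cell markers summed to 1914.92 TPM in replicate 2 against 2120.87 TPM in replicate 1, and steroid-producing cortex markers to 4159.59 TPM in replicate 2 against 5284.69 TPM in replicate 1, so both glands carried the markers of the labelled tissue. No member of either list was called, which at the share called over all genes is no result about the lists. Of 5 lung club and alveolar markers, Scgb1a1 and Scgb3a2 had 0 counts in both libraries, Sftpc 57 counts in replicate 2 and 89 in replicate 1, and Sftpa1 and Sftpb 6 and 2 counts in replicate 2 and 0 in replicate 1. Erythroid markers summed to 3127.91 TPM in replicate 2 against 1700.44 TPM in replicate 1, and skeletal muscle markers to 869.91 TPM in replicate 2 against 476.01 TPM in replicate 1. In each list 1 of 5 was called higher in replicate 2, against 4.61% of all genes tested, too few to read as a result about either list.

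Cyp2f2 (ENSMUSG00000052974, chromosome 7, 27119909 to 27133660, mm10), known for turning naphthalene into its toxic epoxide in mouse lung, was the highest member in both libraries. It had 52.32 TPM in replicate 2 against 76.2 TPM in replicate 1, a mean of 64.3 ± 16.9 TPM (SD, n = 2). Replicate 2 stood at 0.644 of replicate 1 (interval 0.614 to 0.676), beyond counting error but short of the 2-fold rule. It alone gave 13.7% of the members' TPM in replicate 2 and 38.5% in replicate 1. Nearly all of its TPM came from 1 coding transcript, at 99.07% in replicate 2 and 99.26% in replicate 1.

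The other abundant members at similar levels in both libraries came from several families. Cyp4f13 (chromosome 17, 32924688 to 32947402), of a subfamily that hydroxylates leukotrienes and fatty acids, had 25.27 TPM in replicate 2 against 22.9 TPM in replicate 1. Cyp2d22 (chromosome 15, 82370527 to 82380260), often set beside the human drug-oxidising enzyme CYP2D6, had 18.63 TPM in replicate 2 against 17.7 TPM in replicate 1. Their count ratios were 0.958 (interval 0.867 to 1.06) for Cyp4f13 and 0.924 (0.853 to 1.0005) for Cyp2d22, with adjusted p of 0.577 and 0.124 by the exact binomial test. Cyp1b1 (chromosome 17, 79701537 to 79715061), which oxidises oestrogens, retinoids and polycyclic hydrocarbons, had 14.64 TPM in replicate 2 against 12.56 TPM in replicate 1, with a count ratio of 1.05 (0.986 to 1.12). Cyp20a1, a P450 with no established substrate, had 11.16 TPM in replicate 2 against 10.85 TPM in replicate 1, and Cyp4b1, which activates the lung toxin ipomeanol, 9.75 TPM in replicate 2 against 8.99 TPM in replicate 1. TPM divides by a length averaged over a gene's transcripts, so a gene such as Cyp20a1 could be slightly higher in replicate 2 by TPM and lower by counts (ratio 0.872, 0.774 to 0.981). In all, 19 members tested and not called reached 1 TPM in both libraries, among them Cyp4f16 (9.21 TPM in replicate 2, 8.44 TPM in replicate 1) and Cyp4v3 (4.5 TPM in replicate 2, 4.49 TPM in replicate 1).

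Several called members are best known as drug and toxin oxidising enzymes of the liver. Cyp2e1 (chromosome 7, 140763739 to 140774987), the ethanol- and acetone-oxidising enzyme, had 48.73 TPM in replicate 2 against 1.33 TPM in replicate 1, a ratio of 34.1 (interval 26.9 to 43.2). It ranked 2 among the members in replicate 2 and 19 in replicate 1. Cyp2d26 (chromosome 15, 82790101 to 82794294) had 30.22 TPM in replicate 2 against 1.17 TPM in replicate 1, a ratio of 23 (17.8 to 30.1), and ranked 3 in replicate 2 and 20 in replicate 1. These were the 2 called members that reached 1 TPM in both libraries. Cyp3a11 (chromosome 5, 145854426 to 145879964), a main drug-oxidising enzyme of mouse liver and a target of the xenobiotic receptor PXR, had 15.52 TPM in replicate 2 against 0.56 TPM in replicate 1, a ratio of 26.1 (19.02 to 36.1). Cyp1a2, which oxidises caffeine and arylamines, had 3.1 TPM in replicate 2 against 0.1 TPM in replicate 1, and Cyp2a5, the coumarin hydroxylase, 1.03 TPM in replicate 2 against 0.05 TPM in replicate 1. Cyp2b10, the classical target of the receptor CAR, had 22 counts in replicate 2 and 3 in replicate 1.

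Subfamilies are described by their sums, since many of their genes could be tested only through their counts in replicate 2. The 7 Cyp3a genes summed to 33.01 TPM in replicate 2 against 1.03 TPM in replicate 1. Under filterByExpr 2 of them were tested and both called, Cyp3a11 and Cyp3a44. The sum over the 15 Cyp2c genes was 37.98 TPM in replicate 2 against 1.32 TPM in replicate 1. Under filterByExpr 3 of them were tested and all 3 called, Cyp2c23, Cyp2c40 and Cyp2c70. Cyp2c enzymes oxidise drugs and arachidonic acid. Cyp2c37, tested only with the summed minimum, had 250.44 counts in replicate 2 and 3 in replicate 1, a ratio of 87 (29.4 to 424). Cyp2c50 had 48.73 counts in replicate 2 and 0 in replicate 1, at least 16.9-fold higher against a limit of 3 counts, while the exact interval of the ratio begins at 13.3. Cyp2c23, an arachidonic acid epoxygenase gene of mouse kidney, had 5.95 TPM in replicate 2 against 0.38 TPM in replicate 1.

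The Cyp4a genes, which hydroxylate fatty acids at the end of the chain and answer to PPAR-alpha, were called with unequal ratios. Cyp4a14 had 9.36 TPM in replicate 2 against 0.28 TPM in replicate 1, a ratio of 29.8 (19.5 to 47.9). Cyp4a10 had 1.13 TPM in replicate 2 against 0.24 TPM in replicate 1, a ratio of 4.43 (2.54 to 8.18), and Cyp4a31 a ratio of 6.2 (3.81 to 10.4). The interval of Cyp4a14 lay above those of Cyp4a10 and Cyp4a31, but Cyp4a32, with 66.07 counts in replicate 2 against 5.21 in replicate 1, had a ratio of 13.2 (5.6 to 43.7) that overlapped all 3. Cyp4a10 is 97.2% identical to Cyp4a32 in coding sequence, and its SD for shared reads was 3.66% of its count in replicate 2. None of the 6 Cyp4f genes tested was called, which at a background of 4.61% is no result about the subfamily. The Cyp4f genes summed to 42.63 TPM in replicate 2 against 37.89 TPM in replicate 1. Cyp4f15 came nearest to the threshold, at 2.74 TPM in replicate 2 against 1.08 TPM in replicate 1, a ratio of 1.99 (1.44 to 2.79).

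**Figure D3:**
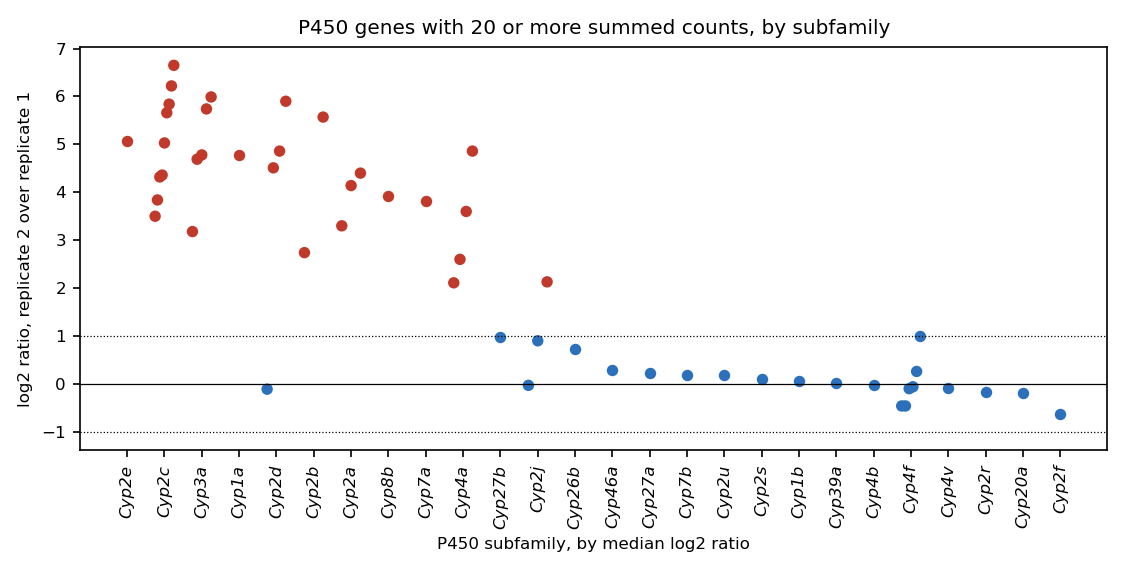
Log2 ratio of replicate 2 over replicate 1 for each of the 54 P450 genes with at least 20 summed counts, by subfamily in order of its median, with called genes in red and others in blue; dotted lines mark 2-fold either way. Cyp2d and Cyp2j hold called and other genes, and the 6 Cyp4f genes lie at -0.46 to 0.99.

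Within 2 subfamilies the members split. In Cyp2d the sum was 61.18 TPM in replicate 2 against 19.47 TPM in replicate 1, yet Cyp2d22 was not called, while Cyp2d26, Cyp2d10 and Cyp2d9 were called. Cyp2d10 had 8.81 TPM in replicate 2 against 0.38 TPM in replicate 1, and Cyp2d9 3.02 TPM in replicate 2 against 0.05 TPM in replicate 1. All lie in 1 cluster on chromosome 15. In Cyp2j, whose enzymes make epoxides of arachidonic acid, Cyp2j5 was called (94 counts in replicate 2 and 22 in replicate 1), Cyp2j9 was 1.88-fold higher in replicate 2 (1.18 to 3.04), and Cyp2j6 had 242 counts in replicate 2 and 258 in replicate 1. Calls of neighbouring genes are given as description only, since many of these genes could be tested only through their counts in replicate 2. Over all tested members 31 of 54 were called, against 4.61% of all genes tested. There were 21 pairs of tested members that followed each other among the P450 genes within 100000 bases. Both genes were called in 14 pairs and neither in 3. In 4 pairs 1 was called and the other was not. The closest split pair was Cyp4a32 and Cyp4b1, 3122 bases apart on chromosome 4, with log2 ratios of 3.6 and -0.02. Another was Cyp2a12 and Cyp2f2, 82533 bases apart on chromosome 7, with log2 ratios of 3.3 and -0.63.

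**Figure D4:**
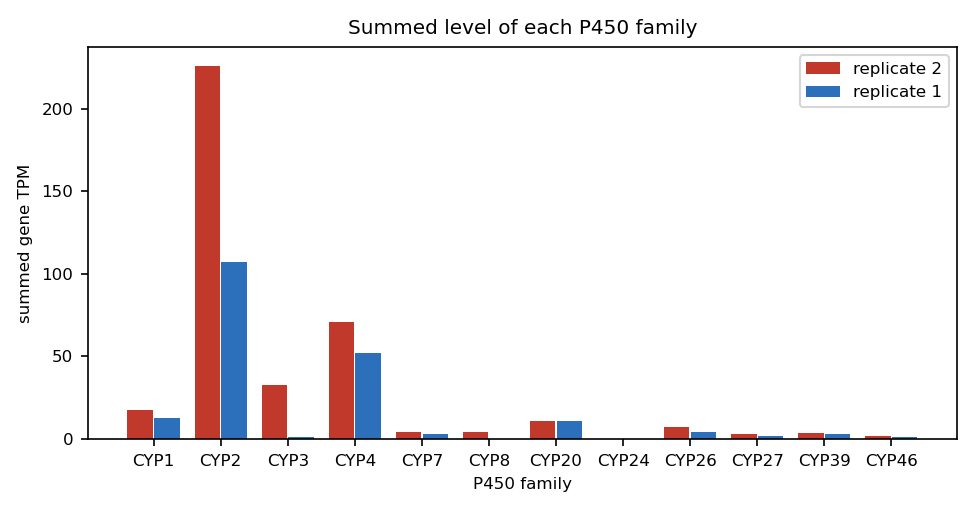
Summed TPM of each P450 family without the steroidogenic genes, in replicate 2 (red) and replicate 1 (blue). CYP2 led at 226.04 TPM in replicate 2 against 107.1 TPM in replicate 1, and CYP3 showed 33.01 TPM in replicate 2 against 1.03 TPM in replicate 1.

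The members of bile acid and oxysterol metabolism split by enzyme. Cyp7a1, the rate-limiting enzyme of the classical bile acid pathway, had 0.44 TPM in replicate 2 against 0.02 TPM in replicate 1, from 47 counts in replicate 2 and 3 in replicate 1, a ratio of 16.3 (5.25 to 82). Cyp8b1, needed for cholic acid, had 4.32 TPM in replicate 2 against 0.26 TPM in replicate 1, a ratio of 15.6 (9.39 to 27.7). Both were called. The other 4 did not pass the test. Cyp7b1, an oxysterol hydroxylase, had 3.6 TPM in replicate 2 against 2.97 TPM in replicate 1, and Cyp39a1, another, 3.53 TPM in replicate 2 against 2.91 TPM in replicate 1. Cyp27a1, the mitochondrial sterol hydroxylase, had 2.83 TPM in replicate 2 against 1.97 TPM in replicate 1, and Cyp46a1, the cholesterol hydroxylase known from neurons, 1.72 TPM in replicate 2 against 1.43 TPM in replicate 1. Their count ratios were 1.14 for Cyp7b1, 1.01 for Cyp39a1, 1.17 for Cyp27a1 and 1.24 for Cyp46a1, and each interval held 1. Of 9 further genes of bile acid synthesis and transport 5 were called higher in replicate 2, against 4.61% of all genes tested: Slc10a1, Abcb11, Slc27a5, Acox2 and Baat. The transporter gene Slc10a1, which takes up bile acids into hepatocytes, had 11.93 TPM in replicate 2 against 0.31 TPM in replicate 1. Akr1d1, a steroid reductase gene, led the list with 103.45 TPM in replicate 2 against 91.54 TPM in replicate 1 and was not called.

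Vitamin D enzymes were low. Cyp2r1, which makes the circulating form, had 0.66 TPM in replicate 2 against 0.61 TPM in replicate 1, and Cyp27b1, which makes the hormone, 0.39 TPM in replicate 2 against 0.18 TPM in replicate 1. Cyp24a1, which breaks it down, had 1 count in replicate 2 and 14 in replicate 1, a ratio of 0.0744 (0.00176 to 0.489). It was the one member called higher in replicate 1 when no filter on counts was used (adjusted p = 0.0147 by the binomial test). No share over all genes was counted at that setting. Of the retinoic acid hydroxylases, Cyp26b1 stood out, at 7.44 TPM in replicate 2 against 4.2 TPM in replicate 1, a ratio of 1.66 (1.5 to 1.85) that passed the adjusted p but not the 2-fold rule. Cyp26a1 had 2 counts in replicate 2 and 5 in replicate 1, and Cyp26c1 none.

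None of 8 redox partner genes was called, which at a background of 4.61% is no result about the list. Por, the reductase that serves microsomal P450s, had 67.32 TPM in replicate 2 against 60.89 TPM in replicate 1, and Fdx1, the ferredoxin of the mitochondrial ones, 337.73 TPM in replicate 2 against 403.6 TPM in replicate 1. Nor was any of 13 genes of heme synthesis and breakdown, with log2 ratios of -0.12 to 0.30. Alas1, the first enzyme of heme synthesis, had 253.3 TPM in replicate 2 against 262.2 TPM in replicate 1. Among nuclear receptors and factors known to control P450 genes, those called higher in replicate 2 included Nr1i3, Nr1i2 and Hnf4a. Nr1i3 (CAR) had 3.64 TPM in replicate 2 against 0.12 TPM in replicate 1, and Nr1i2 (PXR) 1.53 TPM in replicate 2 against 0.02 TPM in replicate 1. Hnf4a had 5.21 TPM in replicate 2 against 1.01 TPM in replicate 1. Hnf4a encodes a factor that maintains hepatocyte gene expression. Ahr, the dioxin receptor, had 4.5 TPM in replicate 2 against 2.84 TPM in replicate 1, and Cebpa, the highest of the list, 27.97 TPM in replicate 2 against 26.65 TPM in replicate 1; neither was called. Of 14 tested genes of conjugation and epoxide hydrolysis, the steps that follow P450 oxidation, 6 were called higher in replicate 2, against 4.61% of all genes tested (Ugt1a1, Ugt2b1, Ugt2b5, Ugt2b34, Ugt2b36 and Sult2a1). Ugt1a1, which conjugates bilirubin, had 15.46 TPM in replicate 2 against 0.36 TPM in replicate 1.

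Beside these members, the steroidogenic P450 genes of the cortex were far more abundant, and their sum was lower in replicate 2. The 88 members summed to 383.2 TPM in replicate 2 against 198.1 TPM in replicate 1, and the 6 steroidogenic genes to 3144 TPM in replicate 2 against 4156 TPM in replicate 1. No steroidogenic gene was called higher in replicate 2, which at a background of 4.61% is no result about these genes. Cyp11b2, the aldosterone synthase gene, was called higher in replicate 1 (background 0.979%), with 70.36 TPM in replicate 2 against 144.26 TPM in replicate 1.

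Promoter letters were compared for the members with a RefSeq promoter, 71 of 88 with 78 promoters. TATAAA was present in 18 of 26 promoters of called members (69.2%), in 1 of 21 promoters of members tested but not called (4.76%, Cyp26b1), and in 13.6% of all 32817 promoters. Members with under 20 counts carried it in 11 of 31 promoters (35.5%). CAAAGTCCA was present in 8 of the 26 (30.8%), in none of the 21, in 1 of the 31 and in 0.475% of all promoters. The 8 were Cyp2c40, Cyp2c67, Cyp2c68, Cyp2c69, Cyp2c70, Cyp3a11, Cyp3a16 and Cyp8b1. The other way round, GCGTG, the core of the site bound by the dioxin receptor, was found in 7.69% of promoters of called members, 38.1% of those not called, 22.6% of those under 20 counts and 32.4% of all. CCAAT was in 50% of the called, 66.7% of those not called, 32.3% of those under 20 counts and 37.4% of all. TGACCTTTG, a nuclear receptor repeat, was in 2 of the 26, both of Cyp3a25, and in none of the 21. It was in 2 of the 31 and in 0.478% of all promoters. TTGCGCAA, a site of C/EBP factors, was in none of the 26, the 21 or the 31, and in 0.183% of all promoters. All 6 motifs were searched on both strands, and none contains another. Copies within Cyp2c, Cyp3a and Cyp2d descend from common ancestors and do not count as separate observations, a match is no proof of binding, and no test was made of these shares.

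**Figure D5:**
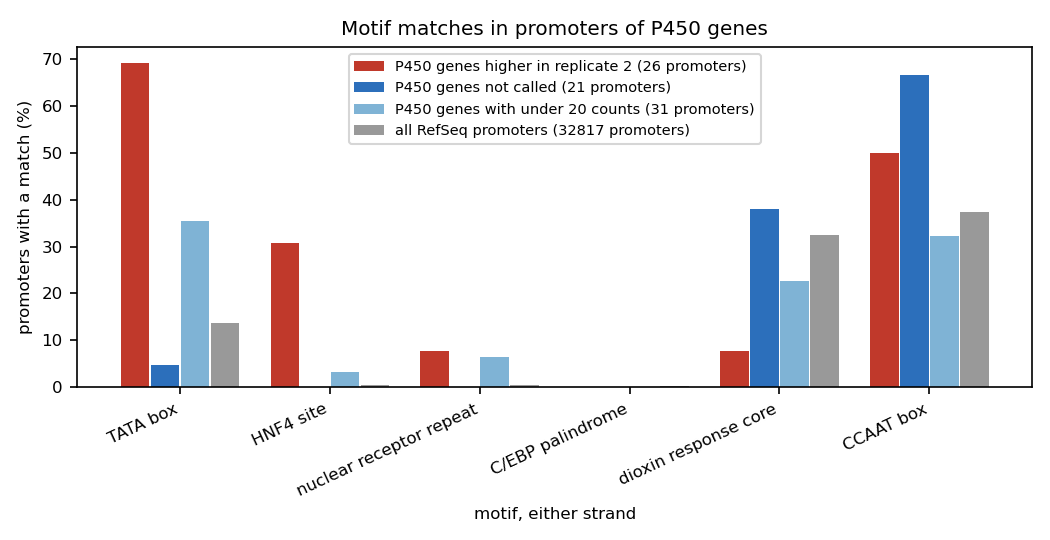
Percent of promoters with a match on either strand to each of 6 motifs, for P450 genes called higher in replicate 2 (red, 26 promoters), P450 genes tested but not called (blue, 21 promoters), P450 genes with under 20 summed counts (pale blue, 31 promoters) and all RefSeq promoters (grey, 32817 promoters). The TATA box stood at 69.2%, 4.76%, 35.5% and 13.6% in that order and the HNF4 site at 30.8%, 0%, 3.23% and 0.475%.

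Transcripts annotated as retaining an intron took a large part of several members' TPM, which total RNA can include. In 7 members at a mean of 1 TPM or more (Cyp20a1, Cyp27a1, Cyp2d22, Cyp46a1, Cyp4f13, Cyp4f15 and Cyp4f16) such transcripts made up at least 20% in both libraries. In the alignment-free tables Cyp20a1 fell below this in replicate 1, at 14.2%. In Cyp2d22 they took 47.06% in replicate 2 and 40.92% in replicate 1, and in Cyp4f13 52.54% in replicate 2 against 44.98% in replicate 1. In Cyp2e1 the share was 1.05% in replicate 2 and 0% in replicate 1, and in Cyp3a11 1.68% in replicate 2 against 2% in replicate 1. The leading transcript of a gene could depend on the library. In Cyp20a1 the coding transcript took 17.03% of the gene's TPM in replicate 2 and 57.19% in replicate 1 in the gene-table method, but 64.5% in replicate 2 and 85.8% in replicate 1 in the alignment-free tables, so the size of this difference depended on the method. Of the 30 detected members with more than 1 transcript, 22 had the same leading transcript in both libraries, and 11 had the same one in both libraries and both methods.

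The 2 kinds of table differed in level for some members. The alignment-free tables gave higher TPM than the gene tables, by a median factor of 1.86 over protein-coding genes at 1 TPM or more and 1.74 over the 49 members at that level in either table. Of these 49 members 11 were over 2-fold higher in the alignment-free tables: Cyp2a5, Cyp2c40, Cyp2c67, Cyp2c70, Cyp2s1, Cyp46a1, Cyp4a31, Cyp4b1, Cyp4f15, Cyp4f16 and Cyp4f17. Over protein-coding genes at 1 TPM or more in the gene tables the share was 32.8%. The 2 sets were chosen by unlike rules, and the 11 are no result about the members.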

How the data were processed

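Total RNA of 2 adrenal glands was measured in 1 group of 2 replicates per the labels. For each library the authors deposited a gene table and 2 transcript tables, made against mm10 and GENCODE M21 as the deposited file descriptions state. Which programs were run is not given in the sources. In the deposited tables expected counts are estimates, with reads shared between transcripts, and the authors' TPM scale them by effective length. The deposited percent values give each transcript's part of its gene's TPM. No source states whether the strand was used in counting, so overlapping antisense genes are uncertain. Members were found by symbol in the alignment-free tables and joined by gene identifier.

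Counts were rounded, genes filtered with filterByExpr and scaled by TMM (edgeR 4.0.16 under R 4.3.3), and each gene's 2 counts compared by an exact two-sided binomial test with Benjamini-Hochberg adjustment over all genes tested (18160, or 19105 with at least 20 summed counts, a rule added after the data were seen). Calls needed an adjusted p under 0.05 and over 2-fold. Ratios are replicate 2 over replicate 1, with a prior count of 0.5 on the log2 scale and exact 95% binomial intervals. DESeq2 1.42.0 size factors were an alternative. The binomial step was tested on simulated data. Promoters came from RefSeq (GRCm38.p6), coding sequences from GENCODE M21 transcripts, and identities from global alignments (Biopython 1.88). Rows named by a bare number (2 counts in replicate 2, 3 in replicate 1) and spike-ins (1.06% of counts in each library) stayed out of all sums.

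Members, gene lists and tests were chosen with earlier results of these data known. Named were the 12 highest members, the highest of each family, the members of largest ratio among those called at 1 TPM, those acting on bile acids, oxysterols, vitamin D and retinoic acid, those over 2-fold apart between the tables, and the 4 highest and the called genes of the pathway lists; other members were named after their values were seen. Some results that need withheld items are not reported here.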

Additional observations from a re-analysis of the deposited data

How the results depend on the processing

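Detection at 1 TPM counted 39 members on the mean, 21 when 1 TPM was required in each library, and 21 to 46 with 1 library left out. Calls higher in replicate 2 numbered 14 with filterByExpr (background 3.39%) and 31 with the summed minimum of 20 (background 4.61%). With no filter on low counts they numbered 36. No share over all genes was counted at that setting, so the 36 are description only. Calls higher in replicate 1 numbered 0 (background 0.606% with filterByExpr and 0.979% with the summed minimum), and 1 with no filter (Cyp24a1). Members at 1 TPM had a median log2 ratio of 2.60, and 2.41 with alignment-free counts, against -0.02 over all genes at 1 TPM. Of these 39 members 18 passed only through replicate 2, so their median is no evidence of a difference. It was 0.30 over the members kept by filterByExpr, which drops genes low in 1 library. The summed TPM of all 88 members was 290.7, 516.1 in the alignment-free tables, 759.2 when rescaled to protein-coding genes, and 198.1 to 383.2 with 1 library left out. The filter settings test more genes; the cause of the other shifts was not tested. Of 170 alternative log2 ratios of 34 named members, 163 kept direction and side of the threshold. The ratios that reversed were within counting error of 0: Cyp26a1 was 0.03 with alignment-free counts, and Cyp4b1 was 0.01 with total counts and with spike-in counts. Cyp4f15 was called at 1.02 under those same library sizes and Cyp27b1 at 1.34 with alignment-free counts, while Cyp3a44 (4.81) was not called there. Depth limits what can be said of members under 20 counts. No paired analysis was possible because the series has 1 group.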

Other observations

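Genes related to the members but outside the naming rule gave the same 2 kinds of value. Cyp3a41a, a copy in the Cyp3a cluster, had 5.46 TPM in replicate 2 against 0.04 TPM in replicate 1, from 319.64 counts in replicate 2 and 2.31 in replicate 1, a ratio of 144 (interval 45.8 to 1382). Cyp4a12a had 38.22 counts in replicate 2 and 1.78 in replicate 1, and Cyp4a12b 27.78 counts in replicate 2 and 4.22 in replicate 1. Cyp51, the sterol demethylase of cholesterol synthesis, had 8.85 TPM in replicate 2 against 6.49 TPM in replicate 1, a ratio of 1.14 (1.03 to 1.26). Ptgis, the prostacyclin synthase gene and a P450 by structure, had 7.61 TPM in replicate 2 against 7.41 TPM in replicate 1, and Tbxas1, the thromboxane synthase gene, 1.56 TPM in replicate 2 against 1.31 TPM in replicate 1.

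Of 30 annotated P450 pseudogenes 3 had at least 20 summed counts. Cyp3a63-ps had 28 counts in replicate 2 and Cyp2d37-ps 22, and both had 0 counts in replicate 1. Both were called higher in replicate 2, against 4.61% of all genes tested. They reached the minimum of 20 counts through replicate 2 alone, so these calls are no further evidence of a difference. Cyp21a2-ps, next to the steroid hydroxylase gene Cyp21a1 and able to share its reads, had 94.33 TPM in replicate 2 against 110.84 TPM in replicate 1.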
